A study of Tachycineta bicolor with 12 samples.

Results

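Ion channels named as voltage-gated or as potassium channels, with the accessory subunits that carry the same names, were followed across 6 tissues of the tree swallow (*Tachycineta bicolor*). The members were chosen by protein name alone: potassium channels and their subunits, sodium channel proteins and subunits, inward rectifiers, hyperpolarization-activated channels, chloride channels, and voltage-dependent calcium channels. Of the 14908 protein-coding segments of the assembly, 122 carried such a name, and these correspond to 112 gene symbols. The names also brought in members that are not gated by voltage. Among them are 12 inward rectifiers, 12 leak channels of the KCNK family, the epithelial sodium channel subunits SCNN1B and SCNN1G and the intracellular chloride channel CLCC1. These are given under their own groups. The best matching protein came from the great tit (*Parus major*) for 40 members, from the starling (*Sturnus vulgaris*) for 28 and from *Zonotrichia albicollis* for 18. Chicken and zebra finch gave 9 each, the canary 8, the collared flycatcher 7 and *Geospiza fortis* 3.

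Brain, ovary, spleen, liver, muscle and blood were taken from 2 adult females, one caught while establishing a territory and the other while incubating. No treatment was applied, and the RNA of the 2 females was mixed in equal molar amounts for each tissue. Each tissue is therefore 1 pool, the variation between females could not be measured, and no test between tissues was possible. Each pool was sequenced on a NextSeq and on a MiSeq instrument, which gives 12 libraries. Counts of both runs were summed and expressed as CPM, counts per 1e6 counts assigned to segments. CPM is not scaled by transcript length, so the level of a member is compared between tissues and never with the level of another gene.

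Voltage-gated channels open a pore for sodium, calcium or potassium ions when the voltage across the membrane changes. Sodium channels start the action potential, calcium channels turn it into calcium entry, and potassium channels end it and set the resting voltage. Neurons and muscle fibres depend on these channels, and most pore proteins assemble with accessory subunits that control their gating and their place in the membrane. The roles stated here for single genes are those known from mammals.

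Channel transcripts were most abundant in the brain. At 1 CPM or more, the level taken as present, 107 members were found in brain (87.7%, against 87.7% of all segments), 86 in ovary (70.5%, against 88.3%) and 57 in spleen (46.7%, against 83.4%). Fewer were present in muscle, with 25 members (20.5%, against 61.2%), in liver, with 20 (16.4%, against 66.7%), and in blood, with 15 (12.3%, against 57.7%). Brain was thus the only tissue in which channels were present as often as other segments. The number depended on the scaling in muscle and blood, where 40 and 24 members were present after TMM scaling (70.7% and 63.4% of all segments), which lowers the weight of a few very abundant transcripts.

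**Figure D1:**
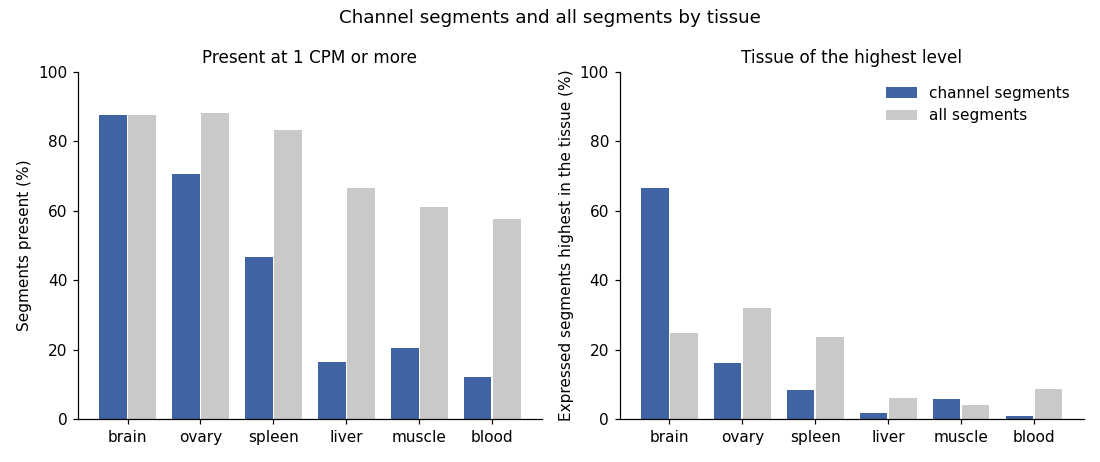
Share of the 122 channel segments (blue) and of all 14908 segments (grey) present at 1 CPM or more in each tissue (left), and share of the 117 expressed channel segments and of all 14561 expressed segments with their highest level in each tissue (right), both in percent. The blue bar equals the grey bar only for presence in brain, and 66.7% of the channels against 24.9% of all segments were highest there.

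Of the 117 members that reached 1 CPM in some tissue, 78 had their highest level in brain (66.7%, against 24.9% of the 14561 expressed segments). Ovary was highest for 19 (16.2%, against 32.1%), spleen for 10 (8.55%, against 23.7%), muscle for 7 (5.98%, against 4.11%), liver for 2 (1.71%, against 6.23%) and blood for 1 (0.855%, against 8.89%). Brain exceeded every other tissue at least 8-fold for 41 members, with 1 CPM added to both levels (33.6%, against 4.51% of all segments). Just inside this limit were KCNK10, at 8.01-fold, CACNA2D3, at 8.06-fold, and CACNB1 segment 1, at 8.18-fold, and the nearest outside it was CACNA1D, at 7.38-fold. After TMM scaling 70 members were highest in brain, 69 of them among the 78, where 20.2% of all expressed segments were. Ovary then led for 16 members, muscle for 12, spleen for 9, liver for 6 and blood for 4. The shares of all segments in these other tissues were not computed under this scaling. In brain 35 members then passed 8-fold, 34 of them among the 41, and the share of all segments was not computed. The calls lost were SCN8A, SCN2B, HCN2, CACNB1 segment 1, CACNG7, KCNG4 and KCNK10. This scaling divides ratios of ovary to liver or blood by 3.93 and 3.94 and multiplies ratios of muscle to ovary by 6.13.

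Summed over the members, the level was 8720 CPM in brain, 1787 in ovary, 958 in spleen, 946 in muscle, 259 in liver and 174 in blood. The order after brain depends on the scaling. TMM scaling multiplies ratios of muscle to ovary by 6.13 and of muscle to spleen by 5.63, which places muscle above both. It also divides ratios of brain to muscle, blood and liver by 5.165, 3.33 and 3.31. The size of the lead of brain over these tissues therefore depends on the scaling too. The sum in brain was 6628 CPM without SCN1A and SCN2A. Tissue specificity was summarised as τ, which is 0 for an even level in all tissues and approaches 1 for a high level in a single tissue. Levels under 2 CPM were set to 2, so τ also depends on the level. KCNK10, present in brain alone at 7.77 CPM, had a τ of 0.66. The median τ of the members was 0.72 (quartiles 0.63 and 0.79), against 0.46 for all expressed segments. Only 3 members, SCN8A and CLCC1 among them, were present in all 6 tissues (2.46%, against 46.5% of all segments).

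Among the 78 members highest in brain, the next tissue was ovary for 44, spleen for 18, muscle for 6, liver for 5 and blood for 5. These counts were not made over all segments highest in brain, so they do not set channels apart from other segments. They also depend on the scaling. With 1 CPM added, TMM scaling made muscle the next tissue for SCN8A and HCN2 and liver for CACNB4. The median level outside brain was 5.62% of that in brain for ovary, 1.64% for spleen, 0.0949% for liver, 0.0725% for muscle and 0.0231% for blood. The shares in liver, muscle and blood rest on few counts. Over all members the median level there was 0.0848, 0.0759 and 0.0235 CPM, and 3 counts correspond to 0.0848, 0.0701 and 0.0941 CPM. TMM scaling multiplies these 3 shares by 3.31, 5.165 and 3.33, so their order was not resolved. In ovary, 23 of the 78 reached at least 10% of their brain level, a count also not made over all segments. Levels of defining neuron genes were set beside these values: all 8 neuron markers were highest in brain, and their summed level of 5840 CPM there compared with 42.4 in ovary, 13.4 in spleen, 37.6 in blood, 1.12 in muscle and 0.537 in liver. The sum in blood was nearly all GAD2, at 37.4 CPM, and the other 7 markers summed to 0.125 CPM there, with 4 of them at 0. The summed level in ovary was 0.725% of that in brain, with single markers between 0.0863% (SLC17A6) and 4.74% (ELAVL4). The part of nerve fibres in the channel levels of ovary and spleen was not tested, and these marker levels do not measure it. Of 3 peripheral glia markers only PMP2 was matched, at 2.67 CPM in ovary, 1.57 in muscle and 0.303 in spleen.

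**Figure D2:**
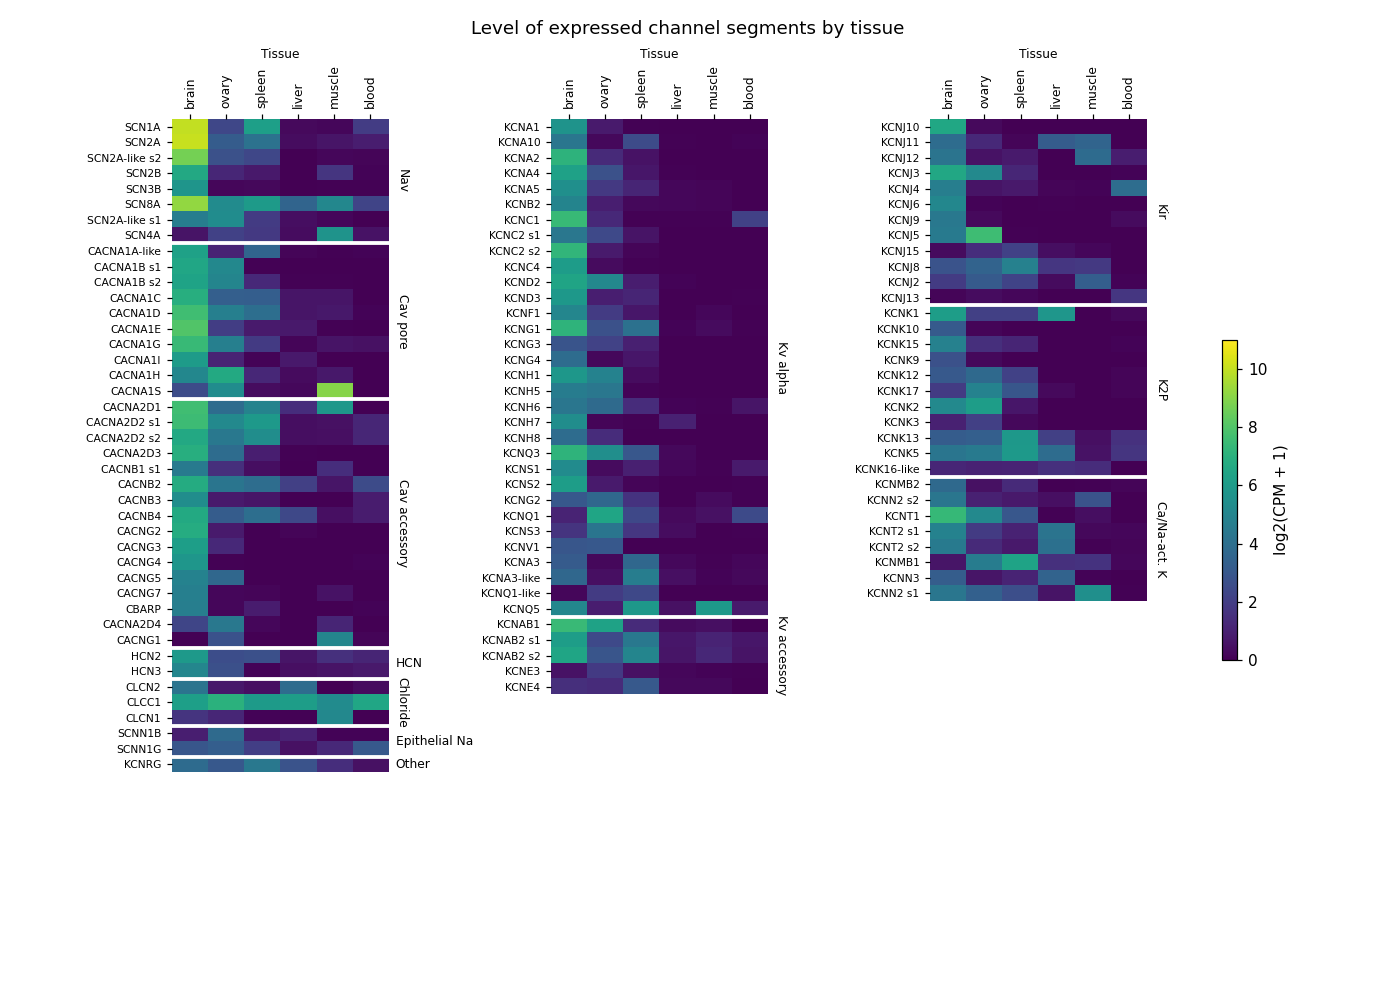
Level of 110 of the 117 expressed members (rows, by role, with s1 and s2 for segments of the same name) in the 6 tissue pools (columns), as log2(CPM + 1). Most rows are brightest in brain, a second band lies in ovary, and single rows such as CACNA1S in muscle, KCNJ5 in ovary and KCNMB1 in spleen are brightest elsewhere.

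Both runs together gave between 16496224.5 counts (spleen) and 42803055.5 counts (muscle), of which the MiSeq libraries held 1011107.5 (brain) to 2004444 (muscle). The level that 3 counts correspond to, used as the floor, was therefore 0.0701 to 0.182 CPM in the summed counts and up to 2.97 CPM in a MiSeq library. The SD of the log2 ratio of MiSeq to NextSeq levels, over members with at least 100 counts, was lowest for blood (0.25, 8 members), muscle (0.31, 15), brain (0.33, 98) and ovary (0.35, 59), and higher for spleen (0.53, 28) and liver (0.55, 14). The tissue of the highest level was the same in both runs for 111 of the 117 members. Both runs share their RNA, so this spread is technical. Intervals given for a ratio are exact 95% intervals that cover counting error only. By CPM, the matched marker genes were highest in the tissue of their cell type for neurons, glia, lymphocytes, erythrocytes, oocytes and ovarian somatic cells. Exceptions were MYBPC1, highest in ovary, among 5 skeletal muscle markers, and TTR, highest in brain, and CPS1, highest in ovary, among 6 liver markers. TMM scaling divides ratios of brain to liver by 3.31, of brain to muscle by 5.165 and of spleen to blood by 3.63. Closer than these factors were TTR (363 CPM in brain, 156 in liver), the glial AQP4 (79.7 in brain, 38.6 in muscle) and the B cell marker CD79B (28.9 in spleen, 11.7 in blood). The order of these 3 therefore depends on the scaling. Because the samples are whole tissues, fewer cells of a type and less RNA per cell cannot be told apart in any level given here.

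The pore-forming alpha subunits of sodium channels carry the upstroke of the action potential. SCN1A, a main alpha subunit of neurons, was at 1015 CPM in brain, 72.9 in spleen, 4.12 in ovary, 2.93 in blood, 0.226 in liver and 0.152 in muscle. Its level in brain exceeded that in spleen 13.9-fold (13.1 to 14.8), and spleen reached 72.2 and 83.5 CPM in its separate NextSeq and MiSeq runs. The level in spleen was 7.18% of that in brain, and the neuron markers in spleen ranged from 0.00484% (SNAP25) to 1.73% (RBFOX3) of theirs. Which cells of the spleen carry SCN1A was not tested.

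SCN2A, the alpha subunit of many excitatory neurons, had 1078 CPM in brain, 16.8 in spleen, 8.07 in ovary, 0.831 in blood, 0.549 in muscle and 0.297 in liver. The brain level was 64.1-fold above that in spleen (56.9 to 72.4). SCN1A and SCN2A belong to one assembled transcript number together with a further segment, SCN2A-like segment 1, so reads may be shared among these related sequences, and their counts are uncertain. SCN2A-like segment 1 behaved differently, with 39.97 CPM in ovary, 24.7 in brain and 2.76 in spleen. Summed over the 3 segments, brain had 2117 CPM, spleen 92.4 and ovary 52.2. SCN2A-like segment 2, which has a transcript number of its own, stood at 413 CPM in brain and at 5.67 in ovary and 4.001 in spleen.

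SCN8A, the alpha subunit found at the axon's initial segment and at nodes of Ranvier, was the only alpha subunit present in all tissues. It reached 586 CPM in brain, 61.9 in spleen, 38.5 in ovary, 32.8 in muscle, 10.7 in liver and 3.73 in blood. The brain level was 9.48-fold above that in spleen (8.89 to 10.1), and both runs gave this order. After TMM scaling muscle came next, and brain exceeded it 3.44-fold with 1 CPM added.

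SCN4A, the sodium channel of skeletal muscle fibres, was highest in muscle, with 49.7 CPM there, 3.34 in ovary and 2.58 in spleen, and levels of 0.483 in brain, 0.470 in blood and 0.297 in liver. Muscle exceeded ovary 14.9-fold (12.02 to 18.7), or 91.2-fold after TMM scaling, and the levels in muscle were 50.002 CPM by NextSeq and 44.2 by MiSeq. It was 1 of 3 members at least 8-fold higher in muscle than in every other tissue (2.46%, against 0.684% of all segments), the others being CACNA1S and CLCN1.

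The beta subunits of sodium channels are membrane proteins that modulate the alpha subunits and bind other cells. SCN3B was at 51.9 CPM in brain and did not exceed 0.182 in the other tissues. SCN2B reached 98.8 CPM in brain, 2.22 in muscle and 1.30 in ovary. Counted by segment, 7 of the 12 sodium channel members were highest in brain, 4 in ovary and 1 in muscle. In brain 6 exceeded every other tissue 8-fold. Of all segments, 24.9%, 32.1% and 4.11% were highest in these tissues, and 4.51% passed 8-fold in brain.

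Voltage-gated calcium channels couple electrical activity to transmitter release, contraction and gene expression. Of the 11 pore-forming segments, 8 of the 10 expressed were highest in brain, 1 in ovary and 1 in muscle. Of all expressed segments, 24.9%, 32.1% and 4.11% were. CACNA1E, the R-type pore, was at 258 CPM in brain and 2.96 in ovary, with 0.758 in spleen, 0.664 in liver and less in muscle (0.0467) and blood (0.0157), a ratio of 87.3 between brain and ovary (69.8 to 111). CACNA1I, a T-type pore of thalamic neurons, had 65.6 CPM in brain and 1.16 in ovary. CACNA1A-like, named after the P/Q-type pore of synapses, had 77.6 CPM in brain and 11.2 in spleen, above the 1.15 in ovary. The L-type pores CACNA1C and CACNA1D were less restricted, CACNA1C with 117 CPM in brain, 9.14 in ovary and 8.73 in spleen, and CACNA1D with 199, 26.1 and 14.8. Both segments of the N-type pore CACNA1B, which triggers transmitter release, had a high level in ovary beside that in brain, 34.4 against 89.6 CPM for segment 1 and 31.5 against 81.5 for segment 2.

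CACNA1H, another T-type pore, was highest in ovary instead, with 100.5 CPM there, 33.0 in brain, 1.33 in spleen, 0.642 in muscle, 0.254 in liver and 0.0157 in blood. The ovary level was 3.04 times the brain level (2.79 to 3.32). The T-type pore CACNA1G was higher in brain, with 171 CPM against 25.6 in ovary. The T-type pores thus differed in their leading tissue in these pools.

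CACNA1S is the voltage sensor that starts contraction in skeletal muscle. It was at 516 CPM in muscle, 39.8 in ovary, 4.93 in brain, 0.273 in spleen and 0.170 in liver, and had no count in blood. Muscle exceeded ovary 12.97-fold (12.2 to 13.8), and the MiSeq run gave 463 CPM in muscle and 39.0 in ovary. After TMM scaling the ratio was 79.4. The gamma subunit of the same complex, CACNG1, had a like order, with 31.7 CPM in muscle, 5.75 in ovary, 0.125 in blood and 0.0508 in brain, and no count in spleen and liver. In ovary CACNA1S was thus at 7.71% and CACNG1 at 18.1% of its level in muscle. The contractile markers ACTA1, TNNC2 and TNNT3 were at 0.220%, 0.0718% and 0.0938% of theirs in the same pools, MYOZ1 was at 0.833%, and MYBPC1 was higher in ovary than in muscle. TMM scaling lowers all of these shares by the same factor, 6.13.

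The accessory alpha2delta and beta subunits bring calcium channel pores to the membrane, and several gamma subunits act in neurons on glutamate receptors. Of 17 accessory segments, 14 were highest in brain and 8 of these at least 8-fold, where 24.9% and 4.51% of all segments were. CACNG2, known as stargazin, was at 110.2 CPM in brain, 0.725 in ovary and 0.0990 in liver, and at 0 counts in spleen, muscle and blood. CACNG3 reached 70.3 CPM in brain and 1.43 in ovary, and CACNG4 53.9 in brain and at most 0.0784 elsewhere. Of the beta subunits, CACNB3 was the most restricted to brain by ratio, at 41.4 CPM and at most 0.7998 in another tissue.

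The alpha2delta members CACNA2D1, CACNA2D2 and CACNA2D3 also had levels outside brain. CACNA2D1, a partner of CACNA1S in muscle, was at 199 CPM in brain, 55.0 in muscle, 29.1 in spleen, 13.99 in ovary and 1.74 in liver, with no count in blood. After TMM scaling its order turned, to 151 in muscle and 106 in brain. CACNA2D2 segment 1 had 187 CPM in brain, 59.8 in spleen and 35.2 in ovary, and segment 2 of the same transcript number gave the same order. CACNA2D4, a subunit of photoreceptor synapses, was highest in ovary with 20.03 CPM, and had 3.99 in brain and 1.23 in muscle. CACNA2D3 was highest in brain, at 119 CPM, with 13.9 in ovary. The other beta subunits CACNB1 (segment 1), CACNB2 and CACNB4 had their maximum in brain, at 21.8, 109 and 100.3 CPM. CACNB2 also had 18.4 CPM in ovary and 14.3 in spleen, and CACNB4 14.9 in spleen. Brain was also highest for the gamma subunits CACNG5 and CACNG7, at 28.0 and 26.2 CPM, and for CBARP, a regulator of the beta subunits, at 25.2. CACNG5 alone among the neuronal gamma subunits exceeded 2 CPM in another tissue, with 11.6 in ovary.

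**Figure D3:**
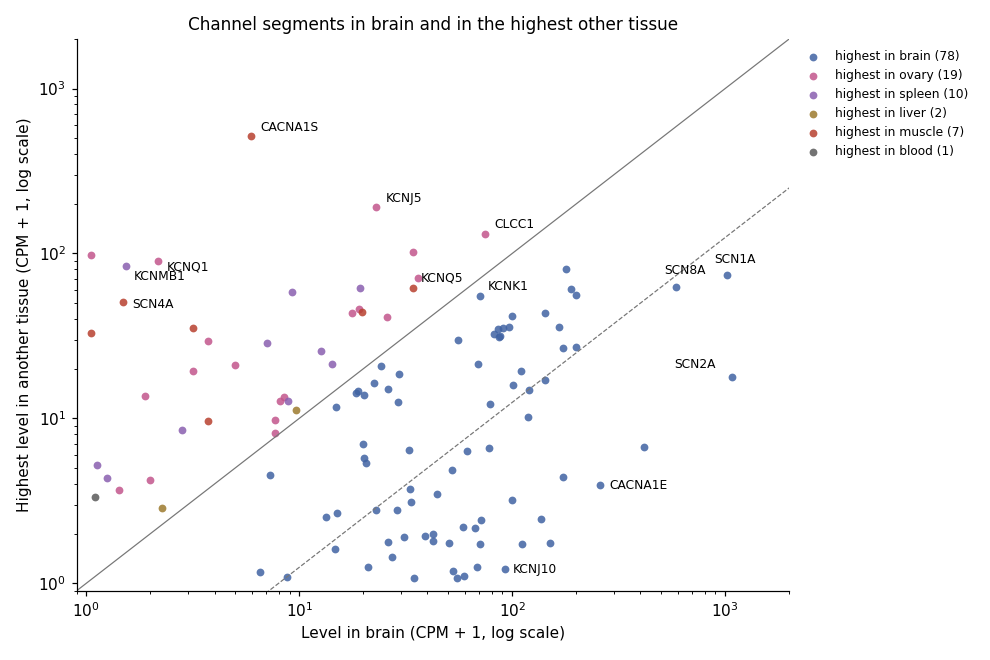
Level of each of the 117 expressed members in brain (horizontal axis) against its highest level in another tissue (vertical axis), both as CPM + 1 on log scales and coloured by the tissue of the highest level. Points under the solid line are higher in brain and the 41 points on or under the dashed line are at least 8-fold higher there, while CACNA1S, KCNJ5 and KCNQ1 lie far above the solid line.

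Voltage-gated potassium channel alpha subunits made the largest group, with 34 segments. Of these, 26 had their maximum in brain, 4 in ovary, 3 in spleen, 1 in muscle, and brain exceeded the others at least 8-fold for 17. Of all segments, 24.9%, 32.1%, 23.7% and 4.11% had their maximum there, and 4.51% passed 8-fold in brain. Only 14 were present in spleen, 2 in blood and 1 each in liver and muscle, where 83.4%, 57.7%, 66.7% and 61.2% of all segments were. The fast delayed rectifiers of the KCNC family, which let neurons fire at high rates, had members with large ratios. KCNC2 segment 2 was at 149 CPM in brain and 0.745 in ovary, with 0.121 in spleen, 0.0141 in liver and no count in muscle and blood. KCNC2 segment 1 differed, at 19.5 CPM in brain and 4.37 in ovary. KCNC4 had 67.3 CPM in brain and at most 0.248 elsewhere. KCNC1 had 171 CPM in brain and an unusual next tissue, blood, at 3.39, above the 1.41 in ovary, and both runs showed that level in blood, with 3.39 and 3.33 CPM.

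The KCNA family, whose axonal members limit repetitive firing, was split between brain and spleen. KCNA2 was at 136 CPM in brain and 1.47 in ovary, and KCNA1 at 49.6 in brain and 0.745 in ovary. KCNA3, the main voltage-gated potassium channel of T lymphocytes, was at 11.8 CPM in spleen, 7.90 in brain, 0.172 in ovary, 0.170 in liver, 0.141 in blood and 0.0350 in muscle. Its order rests on the NextSeq run, in which spleen had 12.3 CPM and brain 7.93, since MiSeq gave 3.95 and 7.42. KCNA3-like was at 24.7 CPM in spleen and 11.6 in brain. Both share a transcript number with KCNA10, which was at 19.1 CPM in brain and 4.79 in spleen, so the division of reads among them is uncertain, and their sum was 41.2 CPM in spleen and 38.6 in brain. KCNA4 and KCNA5 were led by brain, at 76.7 and 43.2 CPM against 5.63 and 2.50076 in ovary, as was the slower delayed rectifier KCNB2, at 30.2 against 0.916. The A-type pores KCND2 and KCND3 differed in ovary, where KCND2 had 34.0 CPM and KCND3 0.897, with 84.8 and 57.6 in brain.

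The silent subunits of the KCNF, KCNG, KCNS and KCNV families do not form a pore alone but change the gating of others. KCNS2 was restricted to brain by this measure, at 69.6 CPM against 0.725 in ovary. KCNG1 had 141 CPM in brain and 16.1 in spleen. KCNS3 was highest in ovary with 18.3 CPM, against 2.36 in spleen and 2.16 in brain. KCNG2 and KCNV1 were also highest in ovary, but close to brain, with 11.7 against 7.14 CPM and 7.10 against 6.66, and the order of KCNV1 turned under TMM scaling. KCNF1, KCNG3, KCNG4 and KCNS1 had their maximum in brain, at 32.2, 6.27, 13.6 and 38.1 CPM.

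KCNQ channels carry the slow M-current of neurons and, for KCNQ1, currents of the heart and of epithelia. KCNQ1 was at 88.6 CPM in ovary, 4.53 in blood, 4.24 in spleen, 1.17 in brain, 0.421 in muscle and 0.226 in liver, so that ovary exceeded blood 19.5-fold (16.5 to 23.3), or 4.96-fold after TMM scaling. The 3 members at least 8-fold higher in ovary than in every other tissue (2.46%, against 2.46% of all segments) included KCNQ1 and KCNJ5. Under TMM scaling neither stayed past 8-fold, with 4.52-fold for KCNQ1 and 6.82-fold for KCNJ5 with 1 CPM added. KCNQ3, a subunit of the neuronal M-channel, was highest in brain, with 142 CPM there and 42.6 in ovary. KCNQ1-like was at 4.24 CPM in spleen and 2.71 in ovary, and MiSeq gave the opposite order. KCNQ5, also found in mammalian muscle, was at 61.1 CPM in muscle, 57.7 in spleen, 33.3 in brain, 0.840 in ovary, 0.737 in blood and 0.410 in liver. Muscle and spleen did not differ beyond counting error, at a ratio of 1.06 (0.982 to 1.14), although the separation widened to 168 against 28.2 after TMM scaling.

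The KCNH family, which includes the EAG and ERG channels, was spread over brain and ovary. KCNH1 had 54.9 CPM in brain and 28.7 in ovary, KCNH5 23.2 and 19.7, and KCNH6 19.1 and 12.8. The 2 runs did not give KCNH5 the same order, with ovary above brain by MiSeq at 23.0 against 18.8 CPM. KCNH7 and KCNH8 were further from ovary, at 41.3 against 0.0954 CPM and at 14.02 against 1.66. The next tissue for KCNH7 was liver, at 1.004 CPM, which brain exceeded 41.2-fold, or 12.4-fold after TMM scaling.

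Among the accessory subunits of these channels, the KCNAB proteins bind to the inner side of the KCNA pore. KCNAB1 was at 177 CPM in brain, 79.9 in ovary and 1.58 in spleen. KCNAB2, with 2 segments on a shared transcript number, had its second level in spleen, with 86.8 CPM in brain, 30.8 in spleen and 6.45 in ovary for segment 2. Of the KCNE subunits, small partners of KCNQ1 and others, KCNE4 was highest in spleen with 7.49 CPM, against 1.83 in brain and 1.55 in ovary. KCNE3 reached 1 CPM in ovary alone, at 2.69 CPM, and KCNE2 reached it nowhere.

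Hyperpolarization-activated channels carry the pacemaker current, and all 3 were highest in brain, where 24.9% of all expressed segments were. HCN2 had 60.4 CPM in brain, 5.36 in spleen and 5.10 in ovary, and HCN3 31.8 in brain and 5.46 in ovary. After TMM scaling muscle came next for HCN2, and brain exceeded it 5.34-fold with 1 CPM added.

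Inward rectifiers stabilise the resting voltage, and some are opened by G proteins or closed by ATP. By CPM, brain was highest for 7 of 12, where it was for 24.9% of all expressed segments. Of these 7, KCNJ4, KCNJ11 and KCNJ12 were no longer highest in brain after TMM scaling. KCNJ10, the potassium buffering channel of astrocytes, was at 91.7 CPM in brain, 0.229 in ovary, 0.0234 in muscle and 0.0157 in blood, with no count in spleen and liver. The G-protein-gated members did not share a tissue: KCNJ6 and KCNJ9 were at 33.5 and 20.1 CPM in brain and at most 0.0764 and 0.251 elsewhere, while KCNJ3 had 95.2 in brain and 34.9 in ovary. KCNJ5, which pairs with KCNJ3 in heart muscle, was highest in ovary, with 191 CPM there, 22.03 in brain, 0.0606 in spleen and 0.0234 in muscle and no count in liver and blood, a ratio of 8.67 (7.86 to 9.59).

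The strong rectifiers of the KCNJ2 group did not share a profile. KCNJ12 had 17.5 CPM in brain, 13.3 in muscle, 0.862 in blood, 0.727 in spleen, 0.458 in ovary and none in liver, and TMM scaling placed muscle first, at 36.5 against 9.33. KCNJ2 was at 8.68 CPM in muscle, 7.56 in ovary, 3.64 in spleen and 2.74 in brain. Muscle and ovary did not differ beyond counting error for KCNJ2 (ratio 1.15, interval 0.964 to 1.37), and MiSeq placed ovary first, whereas TMM scaling placed muscle 7.03-fold above ovary. KCNJ4 was at 25.2 CPM in brain and 14.1 in blood and at most 0.667 elsewhere, and blood came first after TMM scaling.

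KCNJ11 and KCNJ8 are the pores of ATP-sensitive channels, which link metabolism to membrane voltage. KCNJ11 had 13.9 CPM in brain, 10.7 in muscle, 8.27 in liver and 1.39 in ovary, and TMM scaling placed muscle first, with 29.5. KCNJ8, the vascular form, was at 27.7 CPM in spleen, 10.4 in ovary, 6.07 in brain, 2.57 in muscle and 2.38 in liver, with no count in blood. By CPM, spleen also held the highest levels of all 4 smooth muscle markers and of 3 of 4 endothelial markers. The smooth muscle markers summed to 1464 CPM in spleen, 258 in ovary, 78.6 in muscle and 45.0 in brain. TMM scaling divides ratios of spleen to muscle by 5.63. PECAM1, at 191 CPM in spleen and 138 in muscle, KDR, at 119.7 and 27.3, and SMTN, at 31.7 and 7.72, are closer than this factor. The part of smooth muscle and endothelial cells in the level of KCNJ8 was not tested. KCNJ13 reached 1 CPM in blood alone, at 2.32 CPM, and was the 1 member unique to blood (0.409% of all segments were). KCNJ15 was low throughout, with 3.36 CPM in spleen and 1.72 in ovary.

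Potassium channels of the KCNK family, with a pair of pore domains per subunit, give the background leak that sets the resting voltage. Of 11 expressed, 4 were highest in brain, another 4 in ovary, 2 in spleen and 1 in liver. Of all expressed segments, 24.9%, 32.1%, 23.7% and 6.23% were. KCNK13 was at 57.6 CPM in spleen, 8.91 in ovary, 8.28 in brain, 3.27 in liver, 1.96 in blood and 0.350 in muscle, a ratio of spleen to ovary of 6.47 (5.60 to 7.49). KCNK5 had 60.4 CPM in spleen, 21.6 in ovary, 18.2 in brain and 13.9 in liver. Spleen was thus above ovary for both in each run. After TMM scaling liver came next for both. With 1 CPM added, spleen then exceeded liver 1.19-fold for KCNK5 and 4.31-fold for KCNK13.

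KCNK2, a leak channel opened by stretch and lipids, was at 69.5 CPM in ovary and 35.2 in brain and at most 0.576 elsewhere, 1.98-fold (1.81 to 2.16). KCNK17 had 28.3 CPM in ovary, 6.61 in spleen and 2.72 in brain, and KCNK3 reached 1 CPM in ovary alone, at 3.23, with 0.991 in brain just under the limit. KCNK1 was at 69.6 CPM in brain, 54.4 in liver, 3.30 in ovary, 3.18 in spleen, 0.172 in blood and 0.0117 in muscle. Both runs gave KCNK1 this order, with 74.2 and 58.1 CPM by MiSeq, but TMM scaling placed liver first, at 95.9 against 37.0. KCNK9, KCNK10 and KCNK15 were highest in brain, at 5.54, 7.77 and 27.7 CPM. KCNK12 had 12.6 CPM in ovary and 7.47 in brain. KCNK16-like stayed between 1.05 and 1.85 CPM in all tissues but blood, where it had no count, so its order was not resolved.

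Calcium-activated potassium channels link calcium signals to repolarization. KCNMB1, the beta subunit of the large-conductance channel in smooth muscle, was at 83.2 CPM in spleen, 23.4 in ovary, 2.06 in muscle, 1.91 in liver, 0.533 in brain and 0.141 in blood, a ratio of spleen to ovary of 3.55 (3.23 to 3.92). The summed smooth muscle markers given above were at 10.8 CPM in liver and 9.94 in blood, and the part of smooth muscle cells in the level of KCNMB1 was not tested. The beta subunit KCNMB2 was highest in brain, at 12.4 CPM against 1.52 in spleen. No member exceeded every other tissue 8-fold in spleen (0 of 122, against 1.9% of all segments).

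The small-conductance member KCNN2 was represented by 2 segments of separate transcript numbers, whose profiles differed. Segment 1 was at 43.0 CPM in muscle, 18.7 in brain, 9.35 in ovary and 5.33 in spleen, with a ratio of muscle to brain of 2.30 that became 11.9 after TMM scaling, and segment 2 at 18.9 in brain and 6.03 in muscle, an order that TMM scaling turned to muscle first. KCNN3 had 10.16 CPM in liver and 8.61 in brain, without a difference beyond counting error (ratio 1.18, interval 0.981 to 1.43). MiSeq gave the opposite order and TMM scaling a ratio of 3.91. The sodium-activated member KCNT1 was at 165 CPM in brain and 34.7 in ovary. KCNT2 had a second level in liver, with 28.6 CPM in brain and 17.7 in liver for segment 1 and 21.4 and 15.5 for segment 2, and TMM scaling placed liver first for both.

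Chloride channel members did not share a tissue. CLCN1, which sets the resting conductance of skeletal muscle, was at 34.4 CPM in muscle, 2.16 in brain and 1.26 in ovary, with 0.0909 in spleen, 0.0565 in liver and no count in blood, and muscle exceeded brain 15.9-fold (11.7 to 22.1), or 82.2-fold after TMM scaling. CLCN2 had 17.9 CPM in brain and 13.7 in liver and at most 0.649 elsewhere, and liver came first after TMM scaling. CLCC1, a channel of the endoplasmic reticulum, had the lowest τ (0.14) of the members that reached 5 CPM, with 129.8 CPM in ovary, 91.3 in blood, 73.5 in brain, 67.9 in liver, 62.8 in spleen and 38.7 in muscle, and blood came first after TMM scaling.

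The epithelial sodium channel subunits SCNN1B and SCNN1G, which take up sodium in kidney and gut, were both highest in ovary. SCNN1B was at 12.8 CPM in ovary, 1.09 in liver, 0.889 in brain and 0.667 in spleen, a ratio of ovary to liver of 11.7 (8.38 to 16.8), or 2.98 after TMM scaling. SCNN1G had 8.74 CPM in ovary, 7.31 in blood and 6.73 in brain, and ovary and blood did not differ beyond counting error (ratio 1.20, interval 0.993 to 1.44), with blood first after TMM scaling. KCNRG, a regulator of potassium channel assembly, was at 20.5 CPM in spleen, 13.2 in brain, 7.12 in ovary and 6.14 in liver, with 1.68 in muscle and 0.423 in blood, and TMM scaling placed liver just above spleen, at 10.8 against 9.98.

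**Figure D4:**
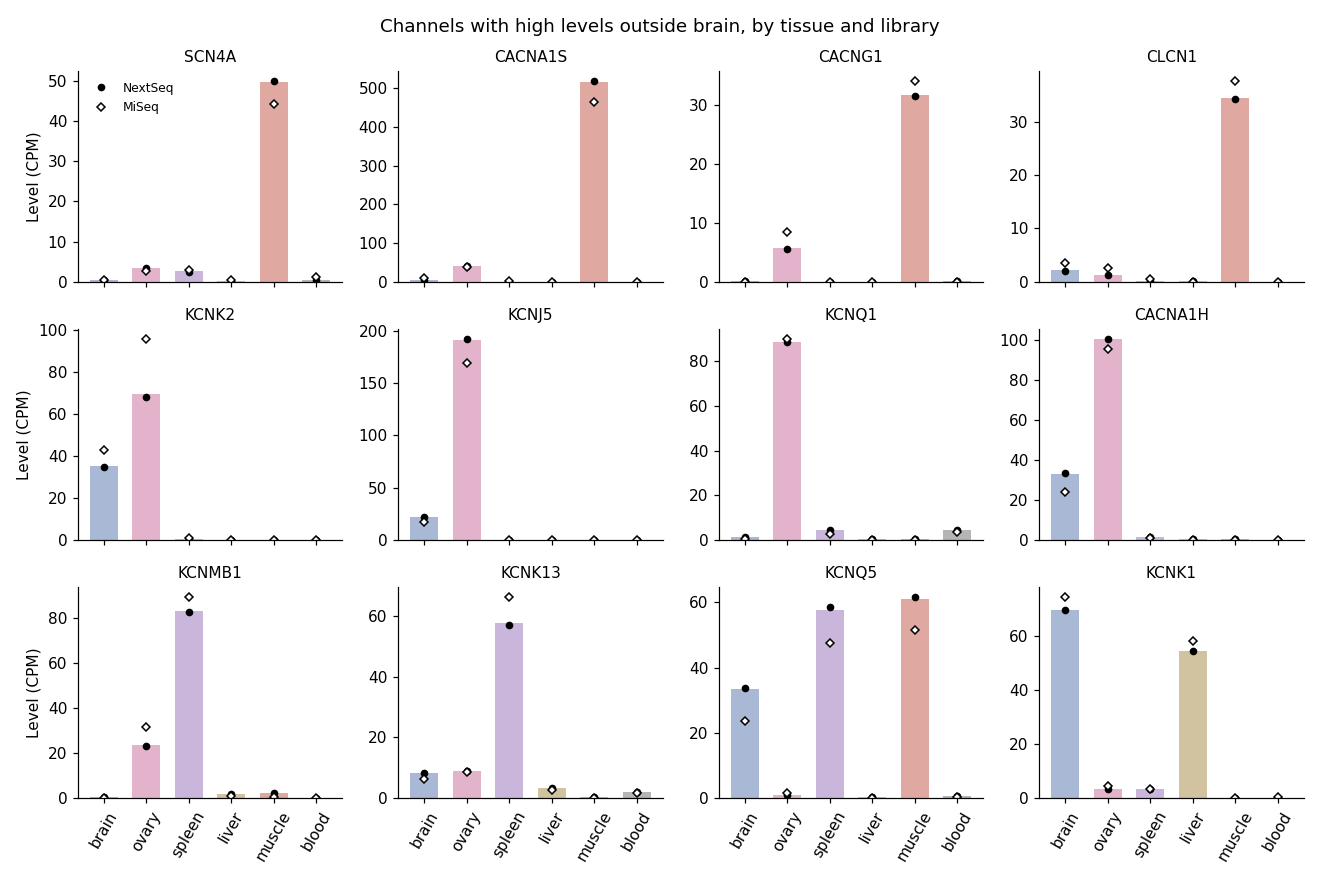
Level in CPM of 12 members with a high level outside brain, in each tissue pool. Bars give the summed counts, filled circles the NextSeq library and open diamonds the MiSeq library of the same pool, and both runs place SCN4A, CACNA1S, CACNG1 and CLCN1 highest in muscle, KCNK2, KCNJ5, KCNQ1 and CACNA1H in ovary, and KCNMB1 and KCNK13 in spleen.

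Presence in 1 tissue alone was found for 23 members. Brain held 19 of these (15.6% of the 122, against 3.04% of all segments), among them CACNB3, CACNG2, CACNG4, CACNG7, CBARP, KCNA1, KCNB2, KCNC2 segment 2, KCNC4, KCNG4, KCNJ6, KCNJ9, KCNJ10, KCNK9, KCNK10, KCNS1, KCNS2 and SCN3B. Ovary held 3 (2.33% of all segments), among them KCNE3 and KCNK3. The count in brain depended on the limit, with 12 at 0.5 CPM and 28 at 2 CPM. Which members belonged to it also depended on the scaling. After TMM scaling CACNB3 and KCNS1 passed 1 CPM in blood, at 1.42 and 1.28, and CACNG7 in muscle, at 1.22. In the other direction, several members fell under 1 CPM in all tissues but brain. Among them were KCNA2, at 0.660 CPM in ovary, CACNG3, at 0.643 in ovary, KCNH8, at 0.745 in ovary, and KCNMB2, at 0.740 in spleen. KCND3 and KCNK15 did so too. A further 22 members were present in brain and ovary only (18.0%, against 4.61% of all segments), and 23 in brain, ovary and spleen only (18.9%, against 6.69%). The members that reached 1 CPM nowhere were CACNA1D-like, CACNB1 segment 2, KCNE2, KCNK16 and KCNMB4, with highest levels between 0.0818 CPM (KCNE2) and 0.909 (KCNK16). After TMM scaling CACNA1D-like was at 1.12 CPM in muscle.

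Genes that work with these channels but lie outside the name rule were followed as a list, of which 70 of 82 were matched. By CPM, 45 of these 70 were highest in brain and 23 at least 8-fold, where 24.9% and 4.51% of all segments were. Their median τ was 0.56, against 0.46. TMM scaling divides ratios of brain to liver by 3.31 and to muscle by 5.165. Among the genes closer than these factors were ATP1B1 (877 CPM in brain, 364 in liver), VDAC1 (149 in brain, 32.8 in muscle) and VDAC3 (427 and 209). The count of 45 therefore depends on the scaling, and it was not repeated under TMM scaling. All 8 genes that cluster channels on axons and at synapses were highest in brain, among them CNTN1 with 928 CPM in brain and 16.1 in muscle. By CPM, so were all 5 sodium channel partners, such as the anchor ANK3 at 913 CPM in brain and 81.1 in ovary. Of these 5, FGF13 had 25.8 CPM in brain and 9.81 in muscle. TMM scaling divides ratios of brain to muscle by 5.165, so the order of FGF13 depends on the scaling. The leak channel NALCN and both of its subunits were highest in brain, but UNC79 had 60.5 CPM in ovary and 54.1 in spleen, where NALCN had 48.8 and 1.91.

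Of 7 calcium release genes listed, 6 were matched. Of these, 4 were highest in muscle, where 4.11% of all expressed segments were. RYR1, the release channel that CACNA1S opens, and the related RYR3 were at 79.3 and 554 CPM in muscle and at 7.09 and 417 in brain, and JPH1, which holds the membranes of the junction together, at 173 and 49.9. RYR2 was highest in brain instead, at 1367 CPM against 0.467 in muscle. Among the partners of the KCND pores, which carry the transient A-type current, KCNIP1, KCNIP4, DPP6 and DPP10 were highest in brain and KCNIP2 in blood, with 281 CPM in blood, 16.3 in ovary and 7.42 in brain. The pores themselves were at or near 0 in blood, KCND2 with no count and KCND3 at 0.0470 CPM, and at 84.8 and 57.6 CPM in brain.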

How the data were processed

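RNA of 6 tissues, pooled from 2 females, was sequenced as 12 stranded mRNA libraries. Per the paper, the authors trimmed reads with Trimmomatic 0.36 and mapped them with bwa mem to the segments of their own assembly; the submitters' processing notes instead name STAR 2.5.2a, and the counting tool is not given in the sources used here. The deposited values are expected counts of reads per segment in steps of 0.5, not normalized by the authors; some columns write them with comma separators, deposited as text (the other unit of the table). No lengths or sequences were used. Without strand settings, overlapping genes cannot be told apart.

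Counts of the 2 runs of a pool were summed and divided by their total (CPM). The limits were 1 CPM for presence, a pseudocount of 1 CPM in the 8-fold rule, and a floor of 2 CPM for τ, computed with natural logs. Segments sharing a transcript number were kept apart. The members, the lists of 82 partner and 68 marker genes and the rules were chosen with earlier results of these data known, and the matching of list symbols to protein names was set after the file was seen. Named members were, by rule, the 6 with the largest ratio per tissue and the 4 per role at 5 CPM or more, those highest outside brain, unique outside brain, present nowhere, or even (τ under 0.3); others were chosen after their values were seen. Some members enter the counts but are not reported here by name. No significance test was run, since each tissue is 1 pool. Alternatives were each run alone, the mean of the runs, TMM and median-of-ratios factors, a total without the 50 most abundant segments, a filter of 10 counts, summed names, thinned counts and other limits. The TMM factor was lowest for muscle (0.364), blood (0.565) and liver (0.567) and highest for ovary (2.23), spleen (2.05) and brain (1.88).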

Additional observations from a re-analysis of the deposited data

How the results depend on the processing

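The number of channels highest in brain, 78, lay between 70 and 79 under all alternatives run, and the number at least 8-fold higher in brain, 41, between 35 and 43, or 51 at 4-fold. Presence moved by more than 1.5 times only outside brain, ovary, spleen and liver. In muscle the 25 members present became 40 with TMM and 40 with median-of-ratios factors, and in blood 15 became 24 and 26 with these factors and 25 at 0.5 CPM. Of the members unique to brain, 19 became 12 at 0.5 CPM. The median τ of 0.719 was 0.706 with TMM factors, 0.708 with median-of-ratios factors, 0.704 with the total without the 50 most abundant segments, 0.728 with names summed and 0.861 with a floor of 1 CPM. It was between 0.709 and 0.719 with 1 run alone. TMM factors shifted levels by 1.46 in muscle, 0.82 in liver and 0.82 in blood and by -0.91 in brain, -1.16 in ovary and -1.04 in spleen on the log2 scale. The 3 members at least 8-fold higher in ovary became 1 under these factors, and the 3 in muscle became 5. The shares of all segments past 8-fold were not computed under these factors, so these changes are not read as a trait of channels. Under them 103 of 117 members kept their highest tissue, and 98 kept it under every scaling and run tried, also in thinned counts. With 1 segment per transcript number, an alternative chosen after seeing the data, 73 were highest in brain and 40 at least 8-fold. Of the 71 members named by rule, none at 8-fold or more changed direction, and 12 below it did in some alternative. For TMM scaling the result at 8-fold was fixed in advance, since its largest factor between 2 tissues was 6.13. Median-of-ratios factors were also too small to turn such a ratio. No paired analysis was possible because each tissue is 1 pool and no test was run. Depth limits the MiSeq runs most, where levels under 2.97 CPM rest on fewer than 3 counts in brain.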
